A study of Homo sapiens with 6 samples.

Results

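The ubiquitin conjugating (E2) enzymes and E2-like proteins other than UBE2A and UBE2B were read after knockdown of those 2. Members were the genes in both deposited tables whose name starts with UBE2, together with BIRC6, CDC34, AKTIP and TSG101. UBE2A, UBE2B, UBE2N, UBE2V1, UBE2V2 and pseudogenes were left out. This gave 35 of the 19922 genes found in both tables, of which 32 had enough reads to be tested. RNA came from HEK293A cells, a derivative of the human embryonic kidney line HEK293, in 6 libraries. In the knockdown group, 3 libraries came from cells given siRNAs against UBE2A and UBE2B together, at 25 uM each, and harvested after 48 h. In the control group, 3 libraries came from cells given vehicle for the same time, with no siRNA of any sequence. Replicates 1 and 2 of each group stood in the first table, and 1 unnumbered library of each group stood in the second. The second table heads its knockdown column siRAD6, RAD6 being the yeast enzyme whose human forms are UBE2A and UBE2B, and this column was taken as the knockdown group by that name. Because the control had no siRNA, a response to siRNA in general and the loss of the targets cannot be told apart, and the labels do not state plainly whether the vehicle included transfection reagent. Separate cultures are not stated either, so that the p-values reflect variation among these libraries, which may be technical. The comparison asks whether other members of the family were expressed at a higher level in the cells with less UBE2A and UBE2B.

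Ubiquitin is passed along a relay of enzymes. An E1 enzyme activates it, an E2 carries it as a thioester on a catalytic cysteine, and an E3 ligase brings the charged E2 to a substrate. The E2 and its E3 set the type of chain, and with it whether a protein is degraded, relocated or given a new partner. Some E2s carry relatives of ubiquitin instead, among them NEDD8 and ISG15, and some family members lack the cysteine and act as scaffolds. UBE2A and UBE2B are the human RAD6 enzymes, whose best known substrates are histone H2B and PCNA.

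Part of the family resembles the targets around the catalytic site. Of the 35 members 17 encode the motif His-Pro-Asn followed by the cysteine at the same spacing as in UBE2A and UBE2B. Shown here are 45 coding bases of both targets, of the UBE2D family, and of UBE2L3, UBE2T and CDC34. They are read 5′ to 3′ on the coding strand from GENCODE v29 transcripts on hg38, with the codon of the catalytic cysteine in capitals. The 9 bases at the left end encode His-Pro-Asn.
UBE2A: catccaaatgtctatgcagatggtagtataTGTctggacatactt
UBE2B: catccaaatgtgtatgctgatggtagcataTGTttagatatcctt
UBE2D1: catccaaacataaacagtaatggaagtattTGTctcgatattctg
UBE2D2: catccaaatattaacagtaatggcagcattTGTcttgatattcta
UBE2D3: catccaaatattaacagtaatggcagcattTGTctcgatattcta
UBE2D4: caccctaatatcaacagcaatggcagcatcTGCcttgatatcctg
UBE2L3: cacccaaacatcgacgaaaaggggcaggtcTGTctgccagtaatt
UBE2T: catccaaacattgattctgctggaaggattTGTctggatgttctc
CDC34: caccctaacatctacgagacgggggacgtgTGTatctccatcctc

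The cysteine is codon 88 in UBE2A (chrX:119582608-119582610, plus strand) and in UBE2B (chr5:134388345-134388347, plus strand). It is codon 85 in UBE2D1 (chr10:58364825-58364827, plus strand). Within the window UBE2B had 38 of 45 bases in common with UBE2A, and UBE2D1 had 30. UBE2T had 31, UBE2L3 had 26 and CDC34 had 23. Over whole coding sequences the longest identical stretch between UBE2A and UBE2B was 25 bases. The longest stretch that any member shared with either target was 15 bases, between UBE2U and UBE2B. Among the tested members it was 13 bases, between UBE2L3 and UBE2B. Some members share longer stretches with each other. UBE2D2 and UBE2D3 matched at 84.4% of aligned coding bases and shared a stretch of 80 identical bases, so a short read from it could come from either gene. The sources used here do not give how the counting treated reads that map to several genes.

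The targeted transcripts were lower in every knockdown library than in every control library. Values per library are given as CPM, which are reads scaled to a common library size with TMM factors, for replicate 1, replicate 2 and the unnumbered library, in that order. UBE2A had 51.9, 57.7 and 49.1 CPM in the knockdown libraries, against 99.6, 97.9 and 105 CPM in the control libraries. It fell by 47.4%, a log2 fold change of -0.93 with a 95% interval of -1.07 to -0.79 (adjusted p = 1.64e-12). UBE2B had 51.9, 55.0 and 46.0 CPM in the knockdown libraries, against 63.1, 64.1 and 61.2 CPM in the control libraries. It fell by 18.8%, a log2 fold change of -0.30 with an interval of -0.45 to -0.16 (adjusted p = 0.0127). The p-values here and below are from edgeR's quasi-likelihood test with the table of origin as a term, adjusted by Benjamini-Hochberg over 13629 genes. The UBE2B call was lost without knockdown replicate 1 (adjusted p = 0.103), control replicate 2 (0.0757) or the second table's knockdown (0.190) or control (0.183) library. With the group as the sole term neither target passed (0.0668 for UBE2A and 1.00 for UBE2B). Both losses were partial, and fewer cells with the transcript cannot be told apart from less transcript per cell in these bulk samples.

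Depth was similar between the groups, at 10887217 to 13790963 counted reads in knockdown libraries and 11306372 to 14564624 in control libraries. Of 11 HEK293 marker genes 9, among them PAX2, KRT8, KRT18 and VIM, exceeded 1 CPM in every library. PAX8 and NEFM did not. Summed over the list they reached 1396 to 1767 CPM in knockdown libraries and 1777 to 1932 CPM in control libraries; the part of this difference in the members' values was not tested. The blood cell markers PTPRC and CD3E were at 0 in every library, and of 6 fibroblast markers COL1A2 and DCN never passed 3 reads. The first principal component, 56.1% of the variance, separated the tables.

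No E2 member passed the test as higher. Of the 32 members tested, 0 passed an adjusted p of 0.05 as higher and 1, UBE2D1, passed as lower. That is 3.12% of the tested members, against 2.47% of all genes in the same fit (0.638% higher and 1.83% lower). DESeq2 with the same terms also called 0 members higher, although it gave no adjusted p for UBE2L6, UBE2F, UBE2D4 and AKTIP. At an unadjusted p under 0.05 there were 7 members, UBE2Z on the higher side and 6 on the lower side. They make up 21.9% of the members, beside 14.1% of all genes. The median log2 fold change was -0.01 over the members and 0.00 over all genes. In size, without sign, it was 0.07 over the members and 0.09 over all genes. On the sign alone, 13 members were above 0 and 19 below, where 49.4% of all genes were below.

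Taken gene by gene, the intervals from the fit with the table term put a limit on an increase in RNA among these libraries. The upper end of the 95% interval lay under a 1.25-fold increase for 29 of the 32 members, and both ends lay within 1.25-fold of no change for 25. The 3 whose upper end reached further were UBE2L6, UBE2F and UBE2D4, which had among the fewest reads. Standard errors ran from 0.05 to 0.20 on the log2 scale with a median of 0.06. The smallest number of reads in any library, as a median over members, was 981.

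**Figure D1:**
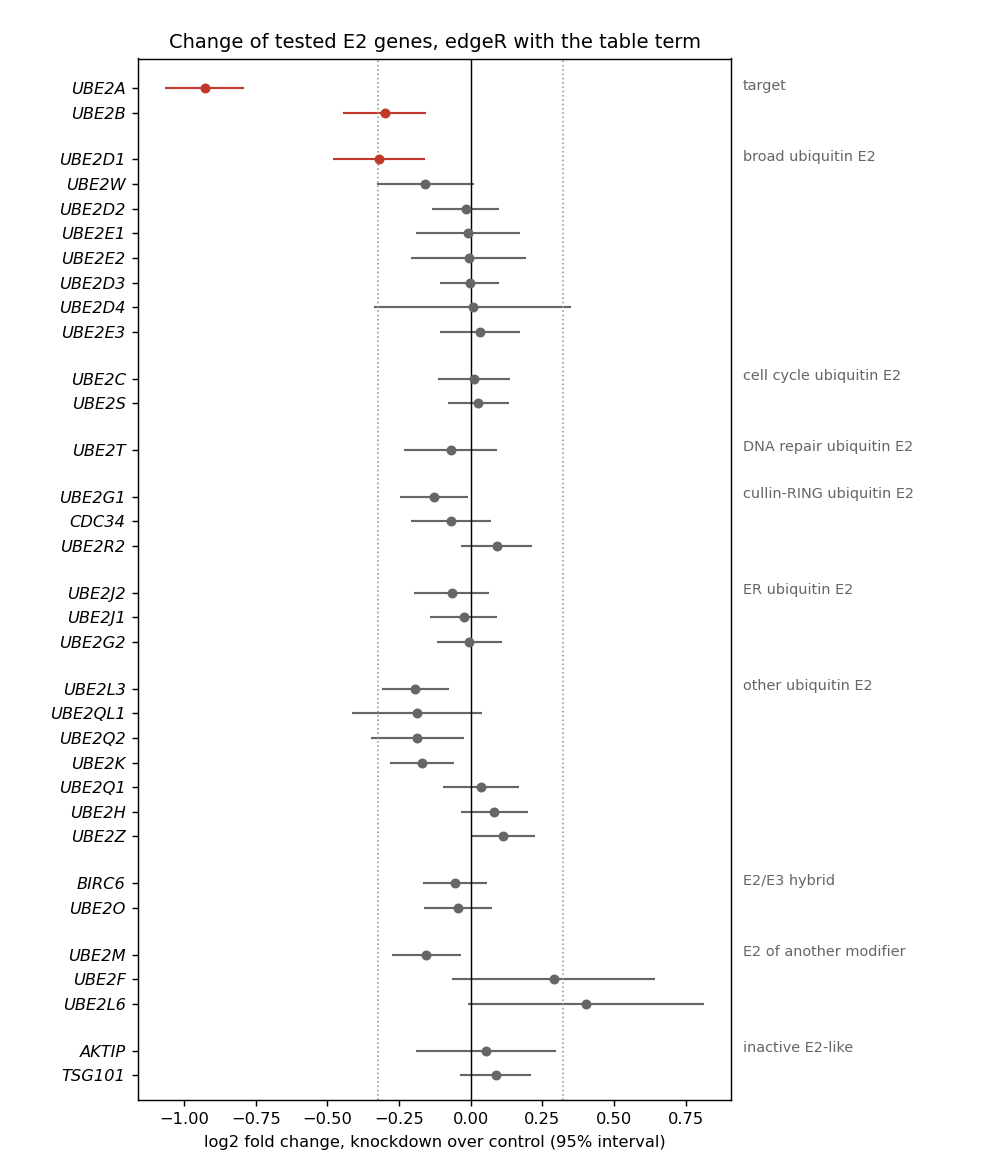
Log2 fold change, knockdown over control, of UBE2A, UBE2B and 31 of the tested E2 members with 95% intervals from edgeR (red, adjusted p under 0.05; dotted lines, 1.25-fold either way), grouped by role. UBE2D1 at -0.32 is the only member in red, and the wide intervals of UBE2L6, UBE2F and UBE2D4 are the ones that cross the right dotted line.

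UBE2D1 was the only member called. It encodes an E2 that works with many RING and HECT ligases, and lies on chromosome 10 from 58334979 to 58370751 (hg38, plus strand; ENSG00000072401). UBE2D1 had 41.8, 40.7 and 34.5 CPM in the knockdown libraries, against 50.1, 55.9 and 40.4 CPM in the control libraries. Within each table both groups were apart, but across tables the unnumbered control was below knockdown replicates 1 and 2. Means were 39.0 ± 3.92 CPM in knockdown libraries and 48.8 ± 7.80 CPM in control libraries (SD, n = 3 each). The log2 fold change of UBE2D1 was -0.32 (interval -0.48 to -0.16, adjusted p = 0.0172), a decrease close in size to that of UBE2B. Within tables, the log2 ratio was -0.36 in the first and -0.23 in the other. The call was lost without control replicate 2 (log2 fold change -0.26, adjusted p = 0.261), knockdown replicate 1 (0.117) or knockdown replicate 2 (0.0738). It was also lost in DESeq2 (0.0518) and with the group as the sole term (1.00).

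None of the 3 paralogues of UBE2D1 passed the threshold in edgeR, with unadjusted p-values from 0.759 to 0.967, or in DESeq2, which gave UBE2D4 no adjusted p. UBE2D2 had 130, 132 and 130 CPM in the knockdown libraries, against 127, 142 and 127 CPM in the control libraries, with a log2 fold change of -0.02 (-0.13 to 0.10). UBE2D3, the member with the most reads, had 336, 325 and 318 CPM in the knockdown libraries, against 331, 334 and 318 CPM in the control libraries. Its log2 fold change was -0.00 (-0.11 to 0.10), and the libraries of both groups lay within one narrow range. UBE2D4 is expressed at a low level, with 7.41, 9.03 and 7.53 CPM in knockdown libraries and 8.89, 6.68 and 8.27 CPM in control libraries. Its log2 fold change of 0.01 had an interval of -0.34 to 0.35, wide enough to hold a change as large as that of UBE2D1. The longest identical coding stretch of UBE2D1 was 20 bases with UBE2D4, 17 with UBE2D3 and 14 with UBE2D2, against the 80 bases that UBE2D2 and UBE2D3 share.

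Of the other broadly acting ubiquitin E2s, UBE2E1, UBE2E2 and UBE2E3 are a family of close paralogues with an extended N terminus. Their log2 fold changes were -0.01 (-0.19 to 0.17), -0.01 (-0.21 to 0.19) and 0.03 (-0.11 to 0.17), in that order. UBE2E1 had 30.8, 30.4 and 27.1 CPM in the knockdown libraries, against 31.4, 29.9 and 27.6 CPM in the control libraries. UBE2E2 had 23.9, 21.9 and 24.8 CPM in the knockdown libraries, against 23.0, 22.2 and 26.05 CPM in the control libraries. The groups of both overlapped, and so did those of the more abundant UBE2E3. UBE2E3 had 65.1, 64.7 and 62.0 CPM in the knockdown libraries, against 60.5, 62.9 and 64.6 CPM in the control libraries. UBE2W, which attaches ubiquitin to the N terminus of substrates, had 36.8, 36.6 and 32.3 CPM in the knockdown libraries, against 38.1, 43.3 and 36.6 CPM in the control libraries. This gave a log2 fold change of -0.16 (-0.33 to 0.01, adjusted p = 0.397).

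**Figure D2:**
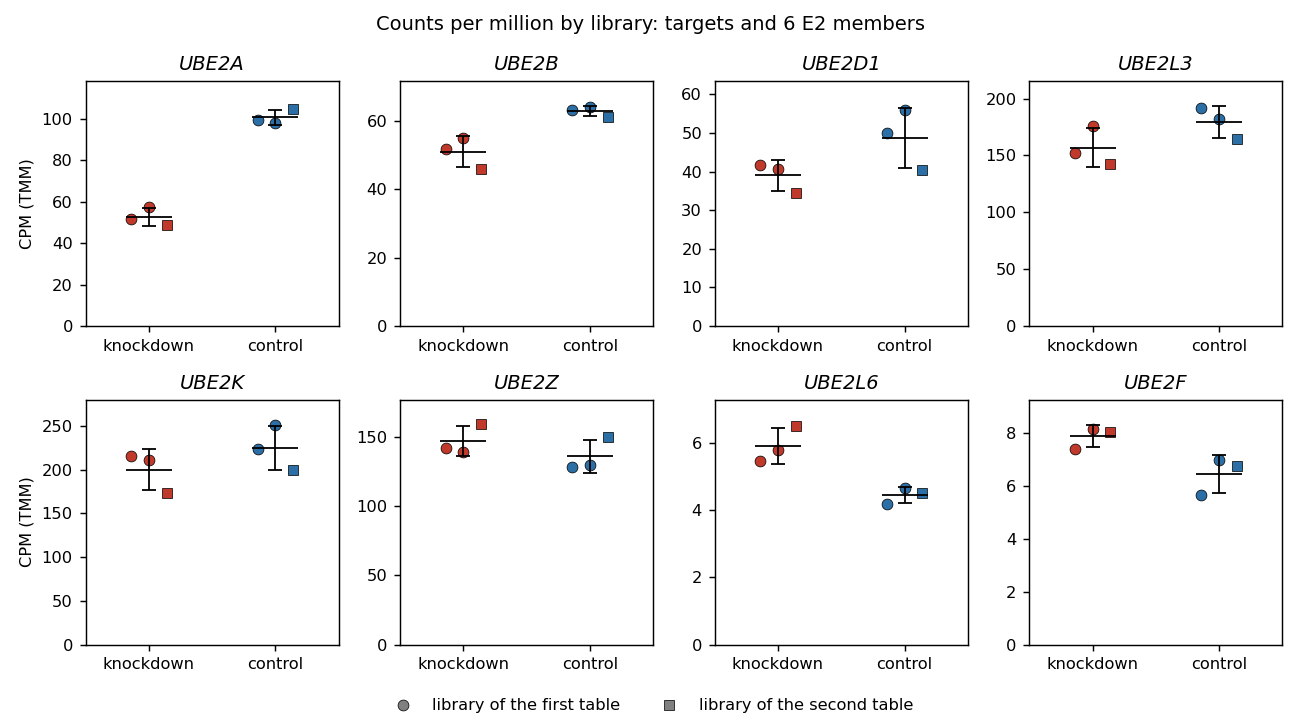
CPM (TMM factors) of UBE2A, UBE2B and 6 members in each library, knockdown left (red) and control right (blue); circles are libraries of the first table, squares of the second, and lines are the mean and SD (n = 3). The targets, UBE2L6 and UBE2F separate the groups, whereas UBE2D1, UBE2L3, UBE2K and UBE2Z separate them within a table only.

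After UBE2D1 the smallest p-values among the members were those of UBE2L3 and UBE2K, both on the lower side. UBE2L3 encodes the main E2 of the HECT and RBR ligases, which take ubiquitin onto a cysteine of their own. It had 152, 176 and 142 CPM in the knockdown libraries, against 191, 182 and 164 CPM in the control libraries. Its log2 fold change was -0.19 (interval -0.31 to -0.08, adjusted p = 0.0611), short of the threshold. It passed when knockdown replicate 2 was left out (-0.26, adjusted p = 0.0152) and when genes with few reads were kept (adjusted p = 0.0385). UBE2K builds chains that mark proteins for the proteasome. It had 216, 212 and 173 CPM in the knockdown libraries, against 224, 251 and 200 CPM in the control libraries, with a log2 fold change of -0.17 (-0.28 to -0.06, adjusted p = 0.0957). Without control replicate 1 it passed (-0.22, adjusted p = 0.0202). For both genes each table had the knockdown below the control, while the groups overlapped across tables.

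UBE2M, UBE2Q2 and UBE2G1 were the other members on the lower side with an unadjusted p under 0.05. UBE2M, the NEDD8 E2 that serves most cullins, had 100, 115 and 151 CPM in the knockdown libraries, against 120, 118 and 170 CPM in the control libraries (log2 fold change -0.15, interval -0.27 to -0.04, adjusted p = 0.196). UBE2Q2 had 39.5, 39.8 and 38.6 CPM in the knockdown libraries, against 46.9, 42.1 and 45.2 CPM in the control libraries (-0.19, interval -0.35 to -0.02, adjusted p = 0.271). UBE2G1, which extends chains with the CRL4 ligases, had 112, 116 and 117 CPM in the knockdown libraries, against 123, 134 and 120 CPM in the control libraries (-0.13, interval -0.25 to -0.01, adjusted p = 0.311). In UBE2Q2 and UBE2G1 every knockdown library was below every control library.

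The largest positive values belonged to UBE2L6 and UBE2F, which serve modifiers other than ubiquitin and had few reads. UBE2L6 is the E2 of ISG15, a modifier induced by interferon. It had 5.46, 5.79 and 6.53 CPM in the knockdown libraries, against 4.21, 4.66 and 4.53 CPM in the control libraries, from 51 to 76 reads per library. The groups were apart, and the means were 5.93 ± 0.545 CPM in knockdown libraries and 4.47 ± 0.233 CPM in control libraries (SD, n = 3 each). The log2 fold change of UBE2L6 was 0.40 with an interval of -0.01 to 0.81 (adjusted p = 0.372), so the data leave room for no change and for a 1.76-fold increase. UBE2F, the NEDD8 E2 that serves CUL5, had 7.41, 8.18 and 8.07 CPM in the knockdown libraries, against 5.65, 6.98 and 6.76 CPM in the control libraries. Its log2 fold change was 0.29 (-0.06 to 0.64, adjusted p = 0.478). UBE2F shares 16.2% of its exon bases with the readthrough gene UBE2F-SCLY on the same strand.

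Over all members the CPM of the groups did not overlap for 4 of 32, or 12.5%, with UBE2L6 and UBE2F higher and UBE2Q2 and UBE2G1 lower. Over all genes the groups did not overlap for 7.70% (3.96% higher and 3.74% lower). None of these 4 members passed the test.

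UBE2Z was the one member on the higher side with an unadjusted p under 0.05. It is charged by UBA6, the second E1 of ubiquitin. UBE2Z had 142, 139 and 159 CPM in the knockdown libraries, against 128, 130 and 150 CPM in the control libraries. The log2 fold change was 0.11 (0.00 to 0.22, adjusted p = 0.350), and the upper end of the interval was a 1.17-fold increase.

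UBE2C and UBE2S work in sequence on the anaphase-promoting complex, where UBE2C starts chains and UBE2S extends them. UBE2C had 102, 101 and 104 CPM in the knockdown libraries, against 96.0, 93.4 and 117 CPM in the control libraries (log2 fold change 0.01, interval -0.11 to 0.14). UBE2S had 257, 266 and 339 CPM in the knockdown libraries, against 262, 246 and 340 CPM in the control libraries (0.03, interval -0.08 to 0.13). For UBE2T, the partner of FANCL in the Fanconi anaemia pathway, there were 42.4, 44.4 and 37.4 CPM in the knockdown libraries, against 43.2, 43.6 and 43.8 CPM in the control libraries. This was a log2 fold change of -0.07 (-0.23 to 0.09). In all of these genes the groups overlapped.

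CDC34 and UBE2R2 are paralogues that supply ubiquitin to SCF ligases. CDC34 had 53.1, 58.7 and 91.8 CPM in the knockdown libraries, against 55.6, 55.7 and 105 CPM in the control libraries (log2 fold change -0.07, interval -0.21 to 0.07). UBE2R2 had 83.4, 83.7 and 101 CPM in the knockdown libraries, against 77.3, 77.0 and 98.4 CPM in the control libraries (0.09, interval -0.03 to 0.21). The pair lay on either side of 0, with intervals that overlapped.

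The E2s of degradation at the endoplasmic reticulum gave log2 fold changes near 0. UBE2G2, which the membrane protein AUP1 recruits, was at -0.00 (-0.12 to 0.11). The membrane-anchored UBE2J1 was at -0.02 (-0.14 to 0.09) and UBE2J2 at -0.07 (-0.20 to 0.07). UBE2G2 had 180, 161 and 182 CPM in the knockdown libraries, against 169, 175 and 181 CPM in the control libraries. UBE2J2 had 71.8, 82.7 and 84.0 CPM in the knockdown libraries, against 79.3, 78.8 and 92.1 CPM in the control libraries. UBE2J1 had 118, 118 and 105 CPM in the knockdown libraries, against 126, 121 and 101 CPM in the control libraries, and the groups of all 3 genes overlapped.

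UBE2H, the E2 of the CTLH ligase, had 111, 115 and 137 CPM in the knockdown libraries, against 112, 108 and 121 CPM in the control libraries (log2 fold change 0.08, interval -0.03 to 0.20). UBE2Q1 had 69.7, 69.5 and 73.9 CPM in the knockdown libraries, against 66.6, 71.6 and 69.6 CPM in the control libraries (0.04, interval -0.10 to 0.17). Neither gene separated the groups. UBE2QL1 varied widely between libraries of one group, with 22.2, 32.7 and 15.1 CPM in knockdown libraries and 33.2, 28.3 and 17.8 CPM in control libraries. Its log2 fold change was -0.19 (-0.42 to 0.04, adjusted p = 0.475). It moved to -0.03 without knockdown replicate 1 (adjusted p = 0.971) and to -0.40 without knockdown replicate 2 (adjusted p = 0.0704). BIRC6 and UBE2O are large proteins that join E2 and E3 functions in one chain. BIRC6, an inhibitor of apoptosis, had 155, 149 and 135 CPM in the knockdown libraries, against 161, 155 and 139 CPM in the control libraries (-0.06, interval -0.17 to 0.06). UBE2O had 122, 134 and 140 CPM in the knockdown libraries, against 132, 140 and 135 CPM in the control libraries (-0.05, interval -0.16 to 0.07). In both genes the groups overlapped.

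TSG101 and AKTIP have the E2 fold without the catalytic cysteine. TSG101, a subunit of ESCRT-I that binds ubiquitinated cargo, had 110, 102 and 89.0 CPM in the knockdown libraries, against 98.9, 103 and 81.2 CPM in the control libraries (log2 fold change 0.09, interval -0.04 to 0.21). AKTIP, part of the FTS-Hook-FHIP complex that links cargo to dynein, had 16.0, 16.1 and 13.5 CPM in the knockdown libraries, against 14.3, 15.02 and 14.7 CPM in the control libraries (0.05, interval -0.19 to 0.30). The groups of both genes overlapped.

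The untested members were UBE2U, UBE2L5 and UBE2F-SCLY. UBE2U had 0 reads in every library. A count of 0 allows up to 3 reads, which is 0.218 to 0.276 CPM in knockdown libraries and 0.206 to 0.265 CPM in control libraries, for counting error only. UBE2L5 had 1 read in knockdown replicate 1 and 1 in control replicate 2, and 0 in the others. UBE2F-SCLY had 0 reads in each knockdown library, against 3, 0 and 2 reads in the control libraries, all within that limit. Both genes share sequence with an expressed member: UBE2L5 matches UBE2L3 at 97.6% of aligned coding bases with a longest identical stretch of 76, and 93.9% of the exon bases of UBE2F-SCLY also belong to SCLY or UBE2F.

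Levels of different genes were compared with the deposited FPKM values, which divide by gene length. UBE2S was the most abundant member by mean FPKM over all libraries at 102 FPKM, followed by UBE2C at 79.4, UBE2M at 73.9, UBE2L3 at 43.7 and UBE2K at 41.0. CDC34 at 37.0, UBE2D2 at 36.9 and UBE2D3 at 32.5 came next, and the spread of CDC34 covered both of these neighbours. This order of means differed between the tables. In the second table UBE2M, with a mean of 92.3 FPKM, stood above UBE2C with 86.4, and CDC34 with 52.2 stood above UBE2L3 with 40.03 and UBE2K with 36.2. In the first, CDC34 ranked 8th with 29.3 FPKM. UBE2D1 ranked 21st with 11.3 ± 1.08 FPKM in knockdown libraries and 13.9 ± 2.15 FPKM in control libraries (SD, n = 3 each). That placed it below the other detected members of its family apart from UBE2D4, which averaged 1.69 FPKM. UBE2L6 at 2.52 FPKM and UBE2F at 1.69 FPKM were among the 4 lowest tested members. UBE2A had 10.1, 11.02 and 9.54 FPKM in the knockdown libraries, against 19.1, 18.5 and 20.03 FPKM in the control libraries. By FPKM, UBE2A and UBE2B made up a small share of the targets and the active ubiquitin E2s among the members, which leave out UBE2N. The share was 3.84% ± 0.408 in knockdown libraries and 5.48% ± 0.223 in control libraries (SD, n = 3 each).

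**Figure D3:**
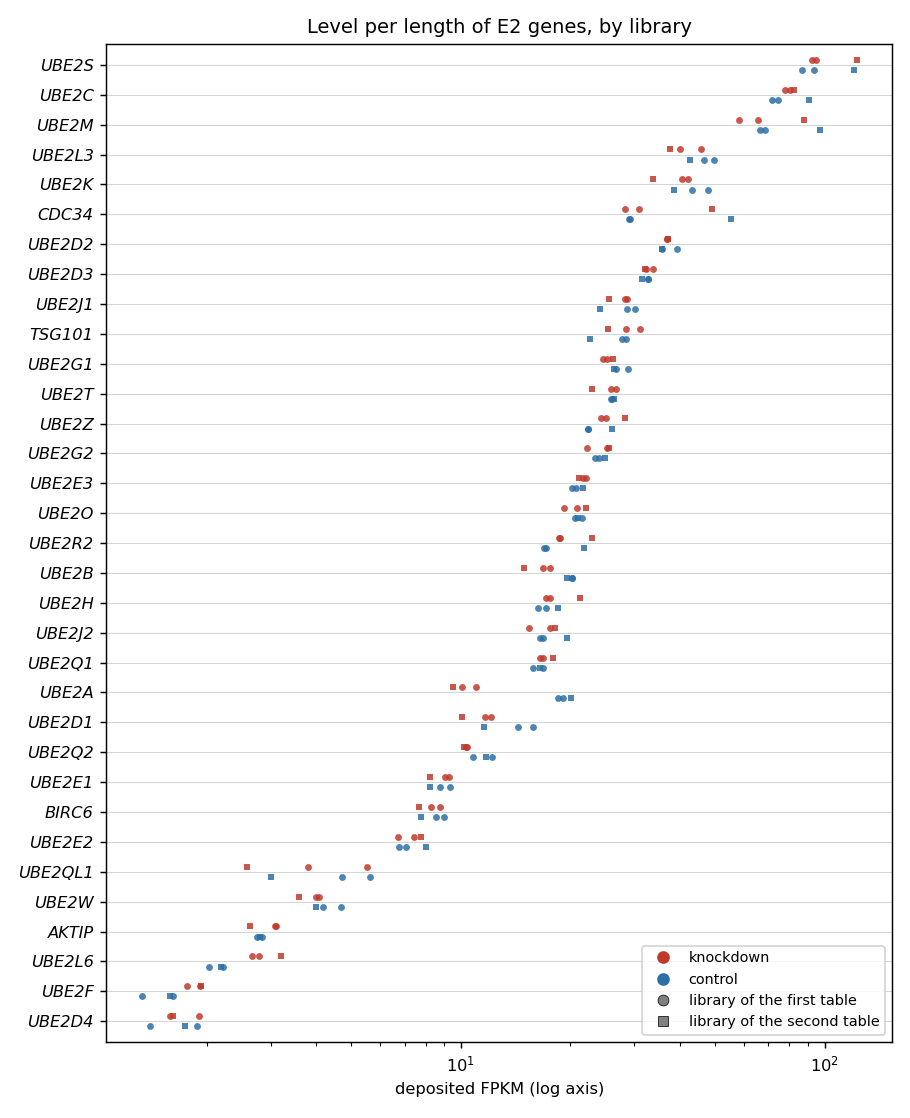
Deposited FPKM (log axis) of UBE2A, UBE2B and 31 tested members in each library, ordered by mean level; red is knockdown, drawn above blue, control, and squares are libraries of the second table. UBE2S at 102 FPKM is at the top and UBE2D4 at 1.69 FPKM at the bottom, and for most genes red and blue overlap.

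Added over the 34 members other than the readthrough gene UBE2F-SCLY, FPKM came to 755, 766 and 829 in the knockdown libraries, against 768, 763 and 854 in the control libraries. The means were 783 ± 39.7 FPKM in knockdown libraries and 795 ± 51.0 FPKM in control libraries (SD, n = 3 each). The difference was -11.6 FPKM, or -1.46%, and the second table was the higher in both groups. Within the first table the sum was 761 ± 7.72 FPKM in knockdown libraries and 766 ± 3.54 FPKM in control libraries (SD, n = 2 each), a difference of -4.92 FPKM, and the groups overlapped. Within the second table the difference was -25.0 FPKM between 1 library of each group, with no replicate to set it against. Restricted to the 28 active ubiquitin E2s it was -1.26%, and without UBE2S it was -2.12%. UBE2A and UBE2B together had 26.6 ± 2.06 FPKM in knockdown libraries and 39.2 ± 0.432 FPKM in control libraries, a difference of -12.5 FPKM. Within the tables the targets' difference was -11.2 FPKM in the first and -15.1 FPKM in the second. In neither table was the mean sum of the members higher in the knockdown.

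The table of origin moved many members more than the knockdown did. Of 32 members 16, or 50%, differed between the tables at an adjusted p under 0.05, 9 higher and 7 lower in the second table, beside 38.2% of all genes. The largest differences, second table minus first on the log2 scale, were 0.82 in CDC34, 0.50 in UBE2M and 0.40 in UBE2S, and -0.83 in UBE2QL1 and -0.33 in UBE2D1. CDC34 had 28.3, 30.9 and 49.1 FPKM in the knockdown libraries, against 29.3, 28.9 and 55.4 FPKM in the control libraries, with the unnumbered library highest in each group. Since each table holds both groups, these differences stand apart from the knockdown contrast when the table is a term.

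The knockdown effect itself did not differ detectably between tables for any member. In a test of the interaction of table and knockdown, edgeR called 0 members and 1 of all 13629 genes, or 0.00734%. At an unadjusted p under 0.05 there was 1 member, UBE2C, beside 4.61% of all genes. The log2 ratio of UBE2C was 0.10 within the first table and -0.17 within the second, an interaction of -0.27 with an edgeR adjusted p of 1.00. With 1 library per group in the second table, only large differences could pass.

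**Figure D4:**
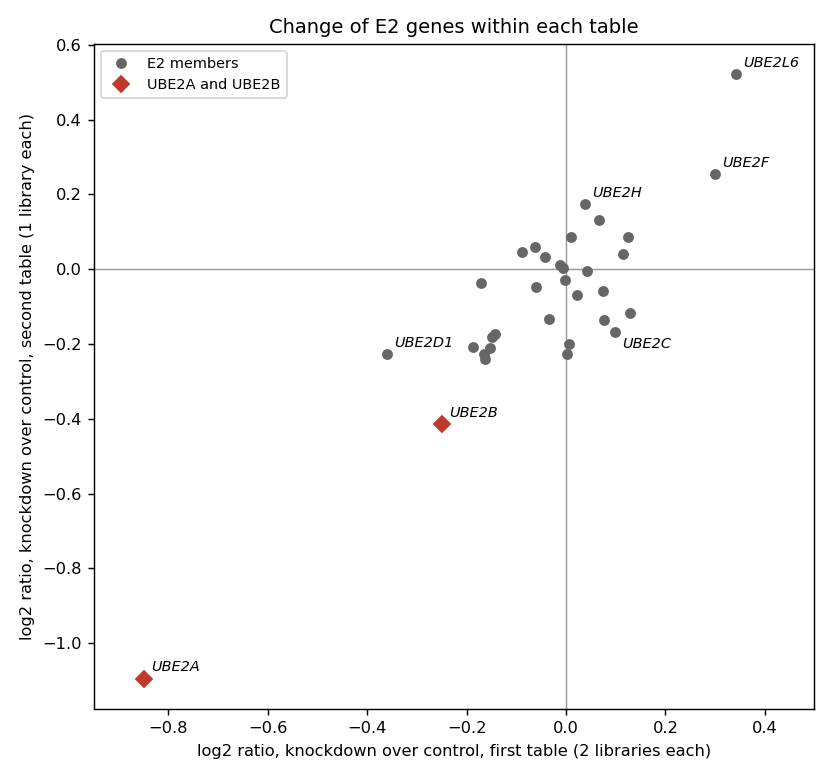
Log2 ratio, knockdown over control, of 31 tested members (grey) and of UBE2A and UBE2B (red diamonds) within the first table (x axis, 2 libraries per group) and within the second (y axis, 1 library per group). UBE2A at -0.85 and -1.09 stands far from the members, UBE2D1 lies below 0 in both tables and UBE2L6 and UBE2F lie above 0 in both.

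Partners of these E2s and related genes, such as mitosis genes, were read in 12 lists with 206 genes, of which 201 were tested. Of those, 1 rose and 2 fell, or 1.49%, beside 2.47% of all genes, and the median log2 fold change was -0.01. None of the 10 E1 activating enzymes tested, 16 genes of the anaphase-promoting complex, 19 of degradation at the endoplasmic reticulum, 17 of the SUMO pathway, 11 of the CTLH ligase, 13 of the Fanconi anaemia core and 19 of ESCRT-I and the FTS-Hook-FHIP complex passed. The same held for 27 RBR and HECT ligases, partners of UBE2L3 (median 0.03), and for 19 genes of G2 and mitosis (median -0.05). At an unadjusted p under 0.05 there were 20 of the 201 genes, or 9.95%, beside 14.1% of all genes, and DESeq2 called 1 of them, CAND1, and gave no adjusted p for ATG10 and IFIT1. The RBR and HECT, Fanconi anaemia, ESCRT-I and mitosis lists had 0 genes even at that level, whereas 5 of 19 genes of the ISG15 system and the interferon response, 4 of 22 cullin-RING and neddylation genes, 3 of 17 SUMO pathway genes and 3 of 9 ubiquitin genes and E2-like enzymes reached it.

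Of 22 cullin-RING and neddylation genes 1 fell. It was CAND1, which exchanges the substrate receptors of cullin ligases. CAND1 had 403, 396 and 343 CPM in the knockdown libraries, against 469, 481 and 394 CPM in the control libraries (log2 fold change -0.24, adjusted p = 0.00463). The call was lost without control replicate 2 (adjusted p = 0.0898). The list's median was -0.05. Of 9 ubiquitin genes and E2-like enzymes of other modifiers 1 fell, ATG10, the E2-like enzyme that joins ATG12 to ATG5 in autophagy. ATG10 had 8.63, 9.19 and 8.34 CPM in the knockdown libraries, against 10.96, 12.99 and 14.8 CPM in the control libraries (-0.55, adjusted p = 0.0274). That call was lost without knockdown replicate 1 (adjusted p = 0.131), control replicate 2 (0.204) or the second table's knockdown (0.313) or control (0.326) library.

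Beside UBE2L6, 19 genes of the ISG15 system and the interferon response were tested and 1, IFIT1, rose. IFIT1 binds foreign RNA. It had 13.2, 12.4 and 39.5 CPM in the knockdown libraries, against 10.1, 10.5 and 24.4 CPM in the control libraries (log2 fold change 0.47, adjusted p = 0.0184). Both libraries of the second table were highest, and the groups overlapped across tables. The call was lost without knockdown replicate 1 (adjusted p = 0.0775) or the second table's knockdown (0.458) or control (0.439) library. The list's median was 0.12, with 11 genes above 0 and 8 below. Its summed level was 474, 492 and 482 CPM in the knockdown libraries, against 482, 476 and 430 CPM in the control libraries, and these overlapped. A link between the genes of this list and the values of UBE2L6 was not tested.

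The 3′ UTRs of the members were also searched for ATGAATTA, an 8-base word that went with lower transcripts in an earlier reading of these same data. Only the transcript strand was searched, in the longest annotated 3′ UTR of each gene (GENCODE v29, hg38). Both targets hold 1 copy, shown with 10 bases on each side and the word in capitals.
UBE2A: tctcagtcatATGAATTAcaacgtagta
UBE2B: agtattagcaATGAATTAgttgcattgg
The word lies at chrX:119583788-119583795 in UBE2A and at chr5:134391219-134391226 in UBE2B, both on the plus strand. Among the 35 members 1, UBE2W, holds it, and UBE2D1 does not. Of 13526 tested genes with an annotated 3′ UTR 5.87% hold it. The median log2 fold change was -0.04 for genes with the word and 0.00 for those without. Their median 3′ UTR lengths were 3476 bases with the word and 1295.5 bases without, and the word was picked from these libraries, so the difference is a description.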

How the data were processed

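RNA sequencing of 3 knockdown and 3 control libraries of HEK293A cells was read from 2 deposited tables. The read counts were deposited by the authors as whole, unnormalized reads per gene; HISAT2, HTSeq and hg38 are named, without versions, in the submitters' processing notes. The sources used here do not give the strand setting, the gene annotation release or the siRNA sequences. The deposited FPKM values were, when recomputed, counts per gene length and per library total; they were used to compare levels between genes and were not tested. The tables held 19987 and 19973 genes and were joined by Ensembl identifier into 19922, of which 17183 had the same coordinates and length. Of the 35 members 32 had the same gene model in both tables, and BIRC6, UBE2G1 and UBE2U had not. Columns of the first table name the replicate; those of the second name only the group. 1 entry of the first table was not analysed here.

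The test was edgeR's quasi-likelihood test (version 4.0.16, R 4.3.3) after filterByExpr and TMM scaling, with the table of origin and the group as terms, over all 6 libraries and 13629 genes. P-values were adjusted by Benjamini-Hochberg over all of these, with 0.05 as the threshold. Intervals (95%) come from the fit's standard error and degrees of freedom. Log2 ratios within a table are of the mean CPM of each group, with an offset of 0.05 CPM added to each mean. Alternatives were the group alone, the replicate number as a block, RLE factors, no filter beyond 1 count, DESeq2 1.42.0, the first table alone and each library left out in turn. Fits were tested on simulated data. The floor of a count of 0 was taken as 3 reads. Between libraries of one group the chi-square per gene was 3.52 to 19.6, so none was counted as a duplicate. Same-numbered deviations correlated at 0.01 over 2 pairs, so numbers were not taken as pairing libraries.

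Genes named were the targets and every member with a read except 1 that is counted but not reported by name. Of each of the 12 lists of partners and related genes, up to 3 members past the threshold were named too. Members, lists and the 8-base word were chosen with earlier results of these data known. Coding sequences and 3′ UTRs came from GENCODE v29 transcripts, aligned with Biopython 1.88.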

Additional observations from a re-analysis of the deposited data

How the results depend on the processing

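The number of members called higher was 0 under every alternative. The number called lower, 1 in the fit reported, was 0 with the group alone, 2 without the filter (UBE2D1 and UBE2L3) and 0 in DESeq2, and 0 to 2 when a library was left out. All genes called, 336 in that fit, were 0 with the group alone, 204 in DESeq2, 154 with the first table alone and 98 to 420 when a library was left out. With the replicate number as a block in place of the table term, 363 genes and 1 member, UBE2D1 (log2 fold change -0.32, adjusted p = 0.0184), were called, and no call on a member or target changed. Of 384 member values over the alternatives 25 changed sign, in 11 members, none of them over 0.12 in size on the log2 scale. With the first table alone these were UBE2T at 0.00092, CDC34 at 0.0055 and UBE2E2 at 0.022; the cause was not tested. With a library left out the ranges that crossed 0 were -0.12 to 0.0042 in UBE2T, -0.12 to 0.11 in UBE2D4, -0.13 to 0.0088 in CDC34, -0.019 to 0.0060 in UBE2D3, -0.056 to 0.040 in UBE2D2, -0.030 to 0.0096 in UBE2E1, -0.023 to 0.10 in UBE2C, -0.089 to 0.0045 in UBE2O, -0.057 to 0.025 in UBE2E2, -0.054 to 0.037 in UBE2G2 and -0.064 to 0.0049 in UBE2J1. The summed FPKM of the 34 members other than UBE2F-SCLY differed by -1.46%, and by -2.30% as CPM. Depth limits UBE2L6, with 51 to 76 reads per library, and UBE2F, with 76 to 106, whose upper bounds were 1.76-fold and 1.56-fold.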
